A study of Homo sapiens with 9 samples.

Results

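Expression of 33 genes that encode tight junction, adherens junction and desmosome proteins was examined in the human colorectal cancer line SW480 carrying EGFP and in 2 lines grown from it. The genes form a fixed list of claudins and other tight junction membrane proteins, tight junction scaffolds, catenins, nectins and desmosomal plaque proteins, and were found as every array probe set annotated to a single gene symbol that is one of them. Of the 33 genes, 31 were found, with 78 of the 54675 probe sets. F11R was not matched to a probe set here, and all 4 probe sets of CTNND1, the gene for p120 catenin, carried a readthrough symbol as well and were left out. Probe sets were tested when 3 or more of the 9 arrays read them above the array's own median, which kept 64 of the 78 and 29 genes. CLDN1, with signals from 8.32 to 39.2 over its 2 probe sets, and CLDN2, with signals from 19.7 to 38.1, did not pass. None of the 33 genes lies on chromosome 8.

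The parent group is the EGFP-carrying SW480 population, called the parent here. SCP51 and SCP58 were each derived from 1 cell of it and were classed as highly and poorly metastatic after orthotopic implantation in mice. RNA came from cultured cells of all 3 groups, so every group shares the SW480 origin and EGFP, and each metastatic class is a single clone. The study asked how these lines differ in gene expression. The labels call the 3 arrays of each group biological replicates without saying how the cultures were separated, and the p-values therefore reflect only how far the arrays of a group scatter, which may be technical. Lower RNA in a fraction of cells and less RNA in every cell cannot be told apart in such bulk samples.

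Epithelial cells are held together by junctions arranged along their lateral membranes. In tight junctions, claudins, occludin and related membrane proteins close the space between cells, and zonula occludens and cingulin proteins tie them to actin underneath. In adherens junctions, cadherins and nectins bind neighbouring cells, and catenins, afadin and vinculin link them to actin. Desmosomes join desmosomal cadherins to keratin filaments through plakoglobin, plakophilins and plakins. The intestinal epithelium uses these junctions for its barrier and its cohesion.

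Values are signals, the deposited intensities on a linear scale, and differences are on the log2 scale ± SE, with 3 arrays in each group. Values per array are given in the order of replicates 1, 2 and 3. A gene was represented by its brightest probe set and was called when the limma p adjusted over all 13598 genes tested was under 0.05. Signals of different genes come from different probes and are not compared. Groups are said not to overlap when all 3 arrays of one lie above all 3 of the other. SCP51 replicate 1 stood apart from the other arrays, with correlations of 0.891 to 0.911 against 0.945 to 0.979 among the other 8. It was the SCP51 array farthest from the other two in 15 of the 29 junction genes, or 51.7%, against 49.2% of all genes. Array medians ran from 41.1 to 44.3. The median difference of all genes was -0.11 for SCP51 minus SCP58 and -0.10 for SCP51 minus the parent, and it moved to -0.05 and -0.04 after quantile normalization. The cultures were described with 12 colorectal epithelial genes, of which 10 passed the filter. KRT20 and LGALS4 did not. None of the 10 was called, which by itself does not show identity. The summed signal of the list was 19016 to 24605 in SCP51, 20131 to 21180 in the parent and 19364 to 21306 in SCP58. It came mostly from KRT8, KRT18, KRT19 and EPCAM. CDX2 (45.5 to 58.2), CDH17 (12.4 to 50.7) and GPA33 (36.2 to 56.2) lay near the array medians, while CDX1, VIL1 and CDH1 lay above them. Of 8 fibroblast, 7 leukocyte and 6 endothelial markers, 3, 2 and 2 passed, and none was called. The summed fibroblast signal was 372 to 401 in SCP51, 448 to 475 in the parent and 387 to 456 in SCP58. The leukocyte and endothelial sums overlapped between all groups.

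Of the 29 junction genes tested, 3 were called between SCP51 and SCP58. NECTIN3, a cell adhesion molecule of adherens junctions, was higher in SCP51, 3.19-fold. OCLN, which encodes the tight junction membrane protein occludin, was 1.87-fold lower in SCP51, and CGN, which encodes cingulin, was 1.58-fold lower. Against the parent only NECTIN3 was called, 4.52-fold higher in SCP51. No junction gene was called between SCP58 and the parent. The catenins CTNNA1 and CTNNB1, afadin (AFDN), desmoplakin (DSP), plakoglobin (JUP), PKP2, PKP3, CGNL1 and PERP all had differences between SCP51 and SCP58 of at most 0.11 in size.

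**Figure D1:**
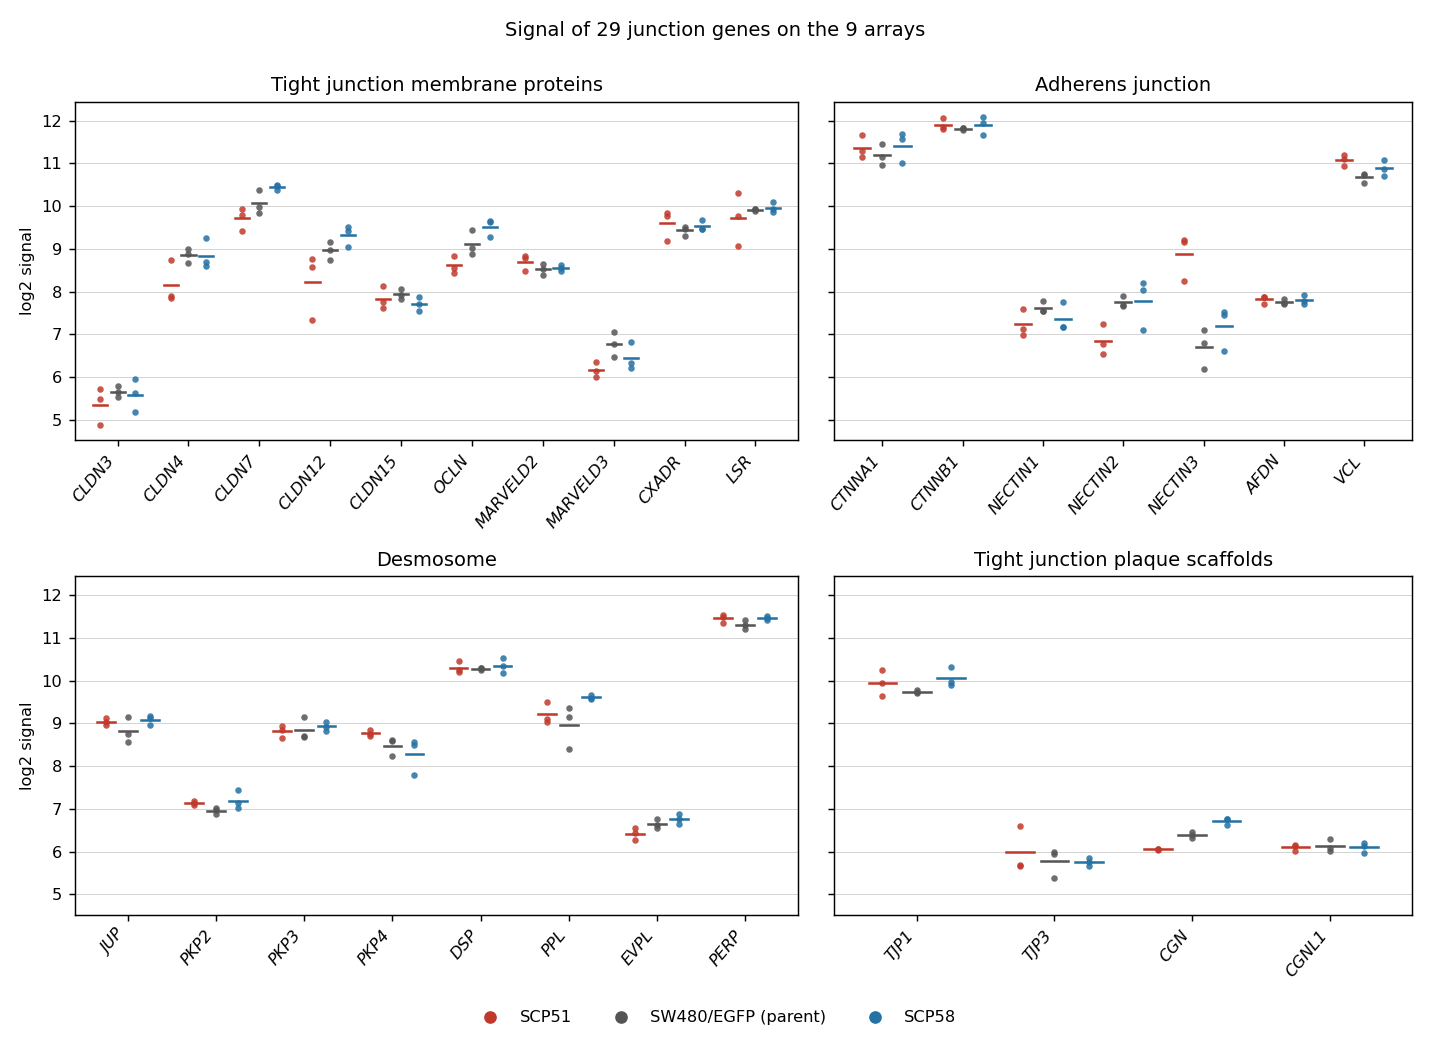
Log2 signal (vertical axis) of the 29 tested junction genes (horizontal axis, 1 probe set each) on the 9 arrays, in panels by junction class. Points are arrays and short lines are group means of 3; levels of different genes are not comparable. NECTIN3 stands higher on the 3 SCP51 arrays than on the 6 others, and OCLN and CGN stand lower.

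In counts, 3 of 29 junction genes (10.3%) were called between SCP51 and SCP58, against 4.08% of all genes. The 1 higher gene compares with 1.48% of all genes called higher, and the 2 lower genes with 2.60% called lower. With an unadjusted p under 0.05 there were 8 of 29 (27.6%), against 21.3% of all genes. Groups did not overlap in 8 of 29, against 25.1% of all genes, and of these 6 were lower in SCP51 (CLDN7, CLDN12, OCLN, CGN, PPL and EVPL) and 2 higher (NECTIN3 and PKP4). Among all genes whose groups did not overlap there, 2337 were likewise lower in SCP51 and 1076 higher. Between SCP51 and the parent, 1 of 29 genes (3.45%) was called, against 2.96% of all genes, 7 had an unadjusted p under 0.05 (24.1%, against 19.6%), and 9 did not overlap (31.0%, against 28.1%). Between SCP58 and the parent, limma called 0 of 29, against 0.140% of all genes, and 2 of 29 had an unadjusted p under 0.05 (6.90%, against 8.60%). The 5 genes whose groups did not overlap there (17.2%, against 17.0%) were all higher in SCP58, namely TJP1, CGN, PKP2, PPL and PERP. Among all genes without overlap in that comparison, 1280 were higher in SCP58 and 1031 lower. The shares of genes that did not overlap were thus close to those of all genes in each comparison. The comparisons with the parent share the parent arrays, and both comparisons of SCP51 share the SCP51 arrays.

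The median difference of the 29 genes between SCP51 and SCP58 was -0.06, with 10 above 0 and 19 below, where 35.0% of all genes lay above 0. After quantile normalization the split was 14 above and 15 below. With the 75th percentile of each array as its centre, 15 lay above and 14 below. Between SCP51 and the parent the median was 0.02, with 15 above 0 and 14 below. Between SCP58 and the parent 21 lay above 0 and 8 below, with a median of 0.09 where the median of all genes was -0.00. In size, the 95% interval of the difference lay within 2-fold in either direction for 23 of 29 genes between SCP51 and SCP58 (79.3%, against 77.8% of all genes). The 6 genes whose intervals reached past 2-fold were CLDN4, CLDN7, CLDN12, OCLN, NECTIN2 and NECTIN3.

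**Figure D2:**
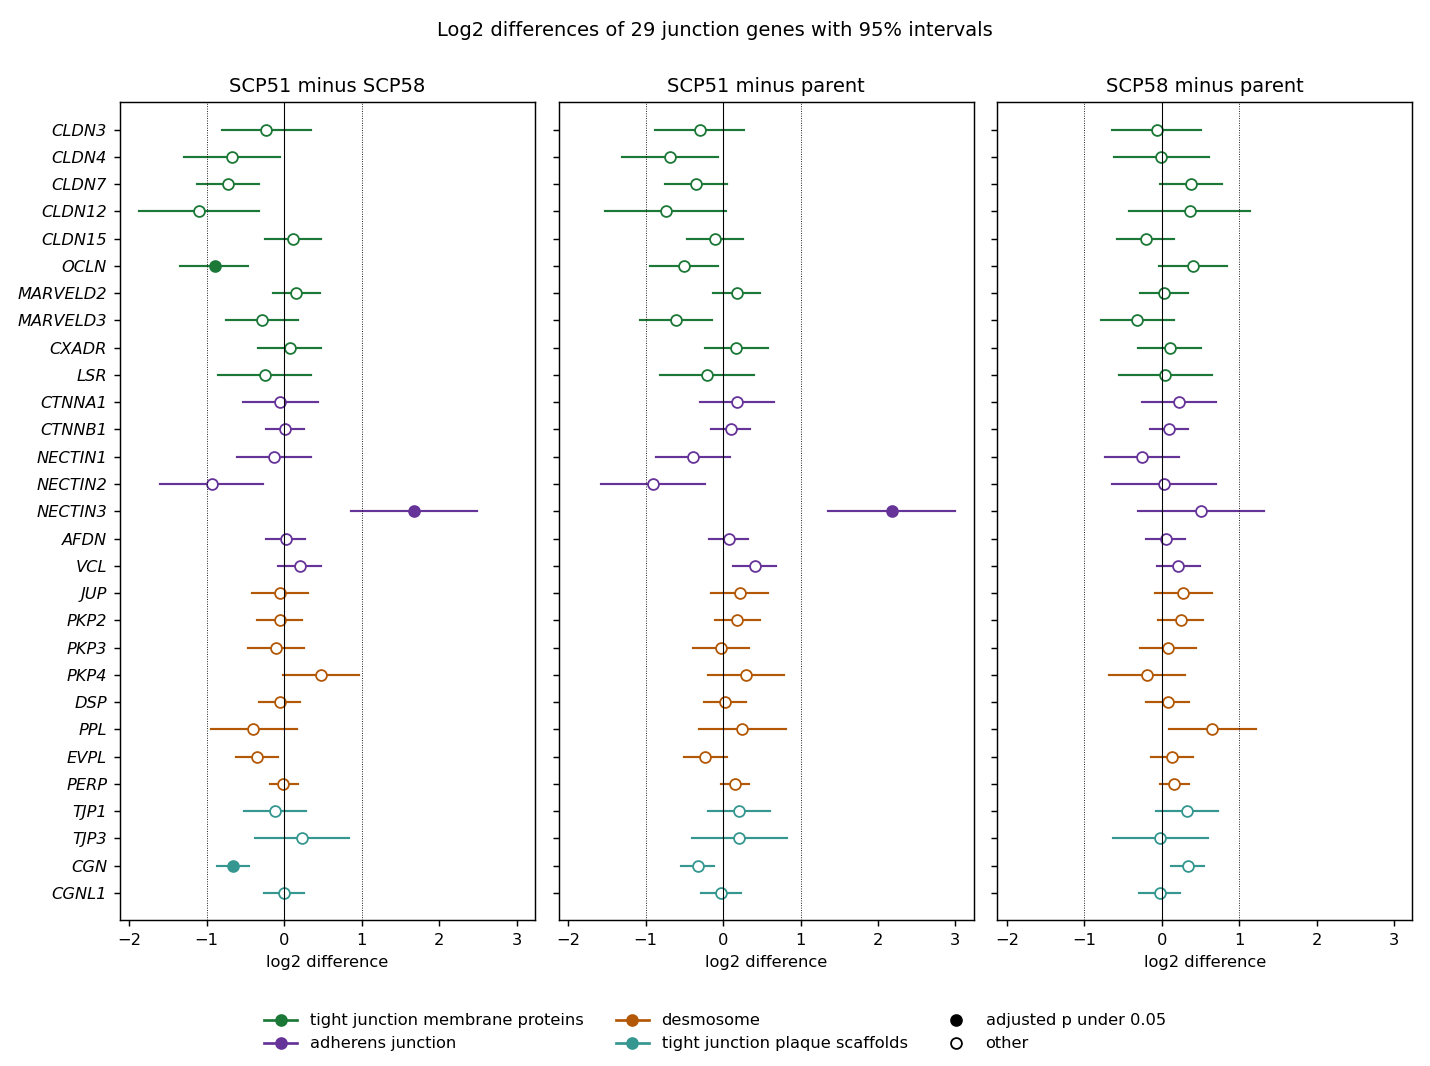
Log2 difference (horizontal axis) of each of the 29 junction genes (vertical axis, coloured by junction class) in the 3 comparisons, with 95% intervals; dotted lines mark 2-fold in either direction. Filled points have an adjusted p under 0.05. They are OCLN, CGN and NECTIN3 for SCP51 minus SCP58 and NECTIN3 alone for SCP51 minus the parent.

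The 250 bases before the RefSeq transcription start are shown for the 3 genes called between lines. They come from RefSeq on build GRCh38.p14 and lie on the plus strand, and the table held promoters for 24 of the 33 genes. They were searched on both strands for CAGGTG, an E-box that ZEB and SNAI repressors of junction genes bind, and for GGAATG, which TEAD factors bind. AACNNGTT, the motif of GRHL factors, was added after the values had been seen. Matches are in capitals, and no motifs overlap.
CGN, chr1:151511137-151511386: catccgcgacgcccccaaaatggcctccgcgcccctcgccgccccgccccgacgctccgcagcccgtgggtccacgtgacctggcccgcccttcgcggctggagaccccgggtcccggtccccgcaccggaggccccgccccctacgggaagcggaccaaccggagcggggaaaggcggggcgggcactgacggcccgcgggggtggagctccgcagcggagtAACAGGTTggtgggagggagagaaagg
OCLN, chr5:69492297-69492546: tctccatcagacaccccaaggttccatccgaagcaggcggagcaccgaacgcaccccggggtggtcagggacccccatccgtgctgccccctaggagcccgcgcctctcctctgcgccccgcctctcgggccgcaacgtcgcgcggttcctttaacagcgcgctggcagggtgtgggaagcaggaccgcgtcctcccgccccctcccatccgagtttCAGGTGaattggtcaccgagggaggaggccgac
NECTIN3, chr3:111071566-111071815: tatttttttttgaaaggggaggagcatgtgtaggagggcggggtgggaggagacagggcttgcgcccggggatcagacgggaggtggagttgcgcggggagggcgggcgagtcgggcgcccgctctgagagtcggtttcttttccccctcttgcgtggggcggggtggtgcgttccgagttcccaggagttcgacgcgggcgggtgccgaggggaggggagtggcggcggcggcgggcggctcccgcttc
The CGN promoter held a single match, AACAGGTT at 27 to 20 bases before the start. OCLN held CAGGTG at 33 to 28 bases before the start, and its other listed promoter held CAGGTG as well, at 133 to 128. NECTIN3 held none of the 3 motifs in this window. Of all 35116 promoters of this length, 17.5% held CAGGTG, 11.9% GGAATG and 3.0% AACNNGTT; of the 36 promoters of the junction genes these were 22.2%, 2.8% and 5.6%. A match describes letters and does not show binding.

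Among the tight junction membrane proteins, 7 of the 10 tested genes lay lower in SCP51 than in SCP58 (median -0.27), also after quantile normalization and with arrays centred on their 75th percentile, and 8 of 10 lay lower than in the parent (median -0.33). Of all genes, 35.0% and 36.0% lay above 0 in these comparisons. OCLN alone was called. Without SCP51 replicate 1 the split was 5 above 0 and 5 below against SCP58, with a median of -0.10, and 3 and 7 against the parent, with a median of -0.14. The median against SCP58 was -0.14 without SCP58 replicate 1, -0.42 without SCP58 replicate 3 and -0.41 without SCP51 replicate 3. Occludin is a membrane protein of the tight junction strands. OCLN signals were 460, 376 and 347 in SCP51, 470, 698 and 522 in the parent and 616, 791 and 806 in SCP58. The SCP51 arrays were the lowest, and the parent and SCP58 overlapped. The difference was -0.90 ± 0.19 between SCP51 and SCP58 (adjusted p = 0.0400), -0.51 ± 0.19 between SCP51 and the parent (adjusted p = 0.201) and 0.40 ± 0.19 between SCP58 and the parent (adjusted p = 0.652).

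The OCLN call was lost in 11 of 20 alternatives, over which the adjusted p ranged from 0.00530 to 0.150. Of single arrays, leaving out SCP51 replicate 2 (adjusted p = 0.121) or 3 (0.0779), parent replicate 1 (0.0553) or 3 (0.0779), or SCP58 replicate 2 (0.150) or 3 (0.121) ended it, while without SCP51 replicate 1 it stood at -1.02 (0.0148). Quantile normalization gave -0.83 (0.0731). Another OCLN probe set, 209925_at, had signals of 44.1, 263 and 198 in SCP51, 357, 342 and 352 in the parent and 347, 274 and 308 in SCP58. SCP51 was again below the others on every array, with replicate 1 far below, but the spread was wide (-1.22 ± 0.56, adjusted p over probe sets = 0.277). The third kept probe set, 231022_at, showed 0.04 ± 0.18. RefSeq lists a pseudogene, OCLNP1, also on chromosome 5, and whether these probe sets also read it was not tested. The same holds for the listed pseudogenes of CTNNA1 and PKP4.

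Claudins form the paired strands of tight junctions and set which ions pass. CLDN7 signals were 686, 881 and 985 in SCP51, 1008, 1337 and 919 in the parent and 1417, 1448 and 1330 in SCP58. All SCP51 arrays lay below all SCP58 arrays, and the parent overlapped SCP51. The difference between SCP51 and SCP58 was -0.73 ± 0.18, with an adjusted p of 0.0562 that missed the threshold; in 5 of 20 alternatives it passed, among them quantile normalization (-0.67, adjusted p = 0.0387), centring on the 75th percentile (0.0452), and leaving out SCP51 replicate 3 (-0.85, 0.0482) or parent replicate 2 (0.0461).

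CLDN4, a claudin abundant in many epithelia, had signals of 429, 238 and 231 in SCP51, 407, 472 and 508 in the parent and 608, 412 and 386 in SCP58. SCP51 replicates 2 and 3 were below every other array, and replicate 1 was among them. Over all arrays the difference was -0.68 ± 0.27 against SCP58 (adjusted p = 0.196) and -0.68 ± 0.27 against the parent (0.213). Without SCP51 replicate 1 both differences were -0.97, with adjusted p = 0.0220 and 0.0278. A dimmer CLDN4 probe set, 1569421_at, showed smaller differences over all arrays. They were -0.14 ± 0.11 against SCP58 and -0.27 ± 0.11 against the parent (adjusted p over probe sets = 0.538 and 0.257). CLDN12, which lacks the PDZ-binding tail of most claudins, had signals of 162, 432 and 380 in SCP51, 430, 576 and 506 in the parent and 528, 686 and 729 in SCP58. Its SCP51 arrays lay below those of SCP58, with replicate 1 the lowest. The difference was -1.10 ± 0.34 (adjusted p = 0.111), and -0.66 without SCP51 replicate 1 (0.0546). CLDN3 and CLDN15 differed between SCP51 and SCP58 by -0.23 ± 0.25 and 0.11 ± 0.16, and their groups overlapped.

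Tricellulin (MARVELD2), which seals the corners where several cells meet, showed 0.15 ± 0.13 between SCP51 and SCP58. MARVELD3, a relative of occludin, had signals of 64.0, 80.7 and 71.1 in SCP51, 133, 88.3 and 110 in the parent and 113, 79.9 and 73.6 in SCP58. It lay below the parent on every SCP51 array (-0.61 ± 0.21, adjusted p = 0.162; 0.00 ± 0.44 when its probe sets were averaged) and overlapped SCP58 (-0.29 ± 0.21). CXADR, an immunoglobulin-type adhesion molecule that also serves as a virus receptor, showed 0.07 ± 0.18 against SCP58 and 0.17 ± 0.18 against the parent. All 4 of its probe sets lay above 0 in the comparison with SCP58; 226374_at, at 840, 831 and 791 in SCP51 and 605, 601 and 613 in the parent, differed by 0.44 ± 0.13 (adjusted p over probe sets = 0.142). LSR, which recruits tricellulin, had signals of 533, 869 and 1270 in SCP51, and those spanned all 6 other arrays, at 930 to 1091 (-0.25 ± 0.27 against SCP58).

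Of the 4 plaque scaffolds, CGN was called. Cingulin sits on the cytoplasmic face of tight junctions and binds zonula occludens proteins and myosin. CGN signals were 66.0, 66.9 and 66.4 in SCP51, 79.3, 83.0 and 87.9 in the parent and 109, 99.1 and 107 in SCP58. The 3 groups did not overlap, with SCP51 lowest and SCP58 highest. The difference was -0.66 ± 0.09 between SCP51 and SCP58 (adjusted p = 0.00891), -0.33 ± 0.09 between SCP51 and the parent (0.110) and 0.33 ± 0.09 between SCP58 and the parent (0.319). The call against SCP58 was kept without each of the 9 arrays in turn. It was lost with the mean of the probe sets (-0.45, adjusted p = 0.0708) and with only the 6 arrays of the comparison (0.0512). The other CGN probe set, 223232_s_at, had signals of 52.0, 47.9 and 57.3 in SCP51, 38.7, 48.7 and 43.8 in the parent and 51.1, 58.7 and 77.5 in SCP58. It had the same sign against SCP58 (-0.23 ± 0.17) and the opposite sign against the parent (0.26 ± 0.17).

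TJP1, which encodes the scaffold ZO-1, had signals of 790, 1216 and 990 in SCP51, 854, 842 and 874 in the parent and 955, 999 and 1279 in SCP58. It was higher in SCP58 than in the parent on every array (0.32 ± 0.17, adjusted p = 0.718), and the other groups overlapped. TJP3, the gene of ZO-3, showed 0.23 ± 0.27 between SCP51 and SCP58, with 97.1 in SCP51 replicate 1 and 41.8 to 63.8 on the other 8 arrays. CGNL1, which encodes paracingulin, showed 0.00 ± 0.11 between SCP51 and SCP58, with a 95% interval of -0.26 to 0.26.

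In the adherens junction class, NECTIN3 was called and the other 6 tested genes were not. Nectins are immunoglobulin-type adhesion molecules that afadin connects to actin, and nectin-3 binds nectin-1 and nectin-2 on neighbouring cells. NECTIN3 signals were 302, 592 and 576 in SCP51, 138, 73.0 and 111 in the parent and 185, 98.2 and 175 in SCP58. Every SCP51 array lay above all others, and the parent and SCP58 overlapped. The difference was 1.67 ± 0.36 against SCP58 (adjusted p = 0.0403), with a 95% interval of 0.86 to 2.49, and 2.18 ± 0.36 against the parent (adjusted p = 0.0175). Between SCP58 and the parent it was 0.50 ± 0.36 (0.836).

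The NECTIN3 call against SCP58 was lost in 11 of 20 alternatives, with adjusted p from 0.00440 to 0.144, and that against the parent in 6 of 20, from 0.00199 to 0.0749. Against SCP58 it was lost without SCP51 replicate 2 (0.130) or 3 (0.0786), parent replicate 1 (0.0586) or 3 (0.0789), or SCP58 replicate 1 (0.0658), 2 (0.144) or 3 (0.0929). Against the parent it was lost without SCP51 replicate 2 (0.0688) or parent replicate 2 (0.0704) or 3 (0.0716). Without SCP51 replicate 1 the differences were 1.99 and 2.49 (adjusted p = 0.00793 and 0.00348). The other NECTIN3 probe set, 227503_at, read 98.7, 281 and 221 in SCP51, 116, 50.5 and 101 in the parent and 108, 70.8 and 145 in SCP58. SCP51 replicates 2 and 3 were above all other arrays there, and replicate 1 was not. Its difference against SCP58 was 0.82 ± 0.46 (adjusted p over probe sets = 0.375), and the mean of both probe sets gave 1.25 (adjusted p = 0.129) against SCP58 and 1.65 (0.0749) against the parent.

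NECTIN2, one of the binding partners of nectin-3, had signals of 92.7, 151 and 109 in SCP51, 202, 239 and 207 in the parent and 263, 296 and 137 in SCP58. SCP51 lay below the parent on every array and overlapped SCP58 through SCP58 replicate 3. The difference was -0.93 ± 0.29 against SCP58 (adjusted p = 0.114; -1.28 and 0.0435 without SCP58 replicate 3) and -0.90 ± 0.29 against the parent (0.148). The other 3 NECTIN2 probe sets read 0.06 ± 0.22, 0.24 ± 0.15 and -0.05 ± 0.14 against SCP58, so the brightest probe set was not matched by the rest. NECTIN1 differed by -0.13 ± 0.21 against SCP58 and -0.39 ± 0.21 against the parent, and its groups overlapped. AFDN, whose product afadin carries nectins to actin, differed by 0.02 ± 0.11 and 0.07 ± 0.11.

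The catenin genes gave small differences. CTNNB1, the gene of beta-catenin, which binds cadherin tails and also acts in Wnt signalling, had signals of 3725, 4248 and 3569 in SCP51, 3501, 3634 and 3618 in the parent and 3262, 3939 and 4331 in SCP58, and all groups overlapped (0.01 ± 0.11 against SCP58, 95% interval -0.24 to 0.26). A dimmer CTNNB1 probe set, 1554411_at, read 394, 635 and 411 in SCP51, 337, 308 and 349 in the parent and 208, 273 and 373 in SCP58. There SCP51 was above all 6 other arrays, at 0.76 ± 0.25 against SCP58 (adjusted p over probe sets = 0.143). CTNNA1, the gene of alpha-catenin, which links beta-catenin to actin, showed -0.05 ± 0.21 against SCP58 and 0.18 ± 0.21 against the parent. Vinculin (VCL), recruited to junctions under tension, had signals of 2193, 2350 and 1967 in SCP51, 1479, 1736 and 1698 in the parent and 1868, 1666 and 2154 in SCP58. It was higher in SCP51 than in the parent on every array (0.41 ± 0.12, adjusted p = 0.127) and overlapped SCP58 (0.20 ± 0.12).

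No desmosome gene was called by limma, with 1, 0 and 1 of 8 at an unadjusted p under 0.05 in SCP51 minus SCP58, SCP51 minus the parent and SCP58 minus the parent. These counts are 12.5%, 0% and 12.5%, against 21.3%, 19.6% and 8.60% of all genes. Of all genes, limma called 4.08%, 2.96% and 0.140%. Between SCP51 and SCP58, 7 of 8 lay below 0 (median -0.06), and 3 of 8 did so under either rescaling, by quantiles or by the 75th percentile. Against the parent, 6 of 8 lay above 0 in SCP51 (median 0.17; 7 of 8 after quantile normalization) and 7 of 8 in SCP58 (median 0.14). The SCP51 median was 0.05, with 5 of 8 above 0, without parent replicate 1, and 0.11 without SCP51 replicate 1. The plakin DSP, which anchors keratin, read 1212, 1397 and 1170 in SCP51, 1210, 1255 and 1253 in the parent and 1293, 1159 and 1492 in SCP58. All 3 groups overlapped, and the difference against SCP58 was -0.06 ± 0.12, with a 95% interval of -0.33 to 0.21. PERP, a desmosomal membrane protein induced by p53, read 2974, 2884 and 2605 in SCP51, 2358, 2543 and 2714 in the parent and 2826, 2752 and 2913 in SCP58. SCP58 was above the parent on every array (0.16 ± 0.08, adjusted p = 0.689), and SCP51 overlapped both. JUP, which encodes plakoglobin, showed -0.06 ± 0.16 against SCP58 and 0.22 ± 0.16 against the parent.

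The plakophilins, armadillo proteins of the desmosomal plaque, varied among themselves. PKP4 read 430, 457 and 417 in SCP51, 384, 301 and 390 in the parent and 361, 221 and 380 in SCP58. SCP51 was above all other arrays, at 0.48 ± 0.21 against SCP58 (adjusted p = 0.244) and 0.29 ± 0.21 against the parent (0.473). Of its 5 kept probe sets, 3 lay above 0 against SCP58, and 201929_s_at also had no overlap (0.58 ± 0.19, adjusted p over probe sets = 0.144). PKP2 was higher in both derived lines than in the parent on every array, at 146, 135 and 141 in SCP51 and 174, 129 and 140 in SCP58 against 129, 118 and 125. SCP58 replicate 2 equalled the highest parent array to the digits given. The PKP2 differences from the parent were 0.18 ± 0.13 and 0.24 ± 0.13. PKP3 showed -0.11 ± 0.16 between SCP51 and SCP58.

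Periplakin (PPL) and envoplakin (EVPL) are plakins that pair in the cornified envelope and also sit at desmosomes. PPL read 730, 551 and 526 in SCP51, 336, 664 and 563 in the parent and 777, 808 and 766 in SCP58. SCP58 was above all other arrays, at 0.65 ± 0.24 against the parent (adjusted p = 0.493), and SCP51 differed from it by -0.40 ± 0.24 (0.398). EVPL read 92.8, 76.8 and 87.0 in SCP51, 109, 97.6 and 93.5 in the parent and 119, 100 and 109 in SCP58. SCP51 was below all other arrays, at -0.35 ± 0.12 against SCP58 (adjusted p = 0.137) and -0.23 ± 0.12 against the parent (0.325).

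**Figure D3:**
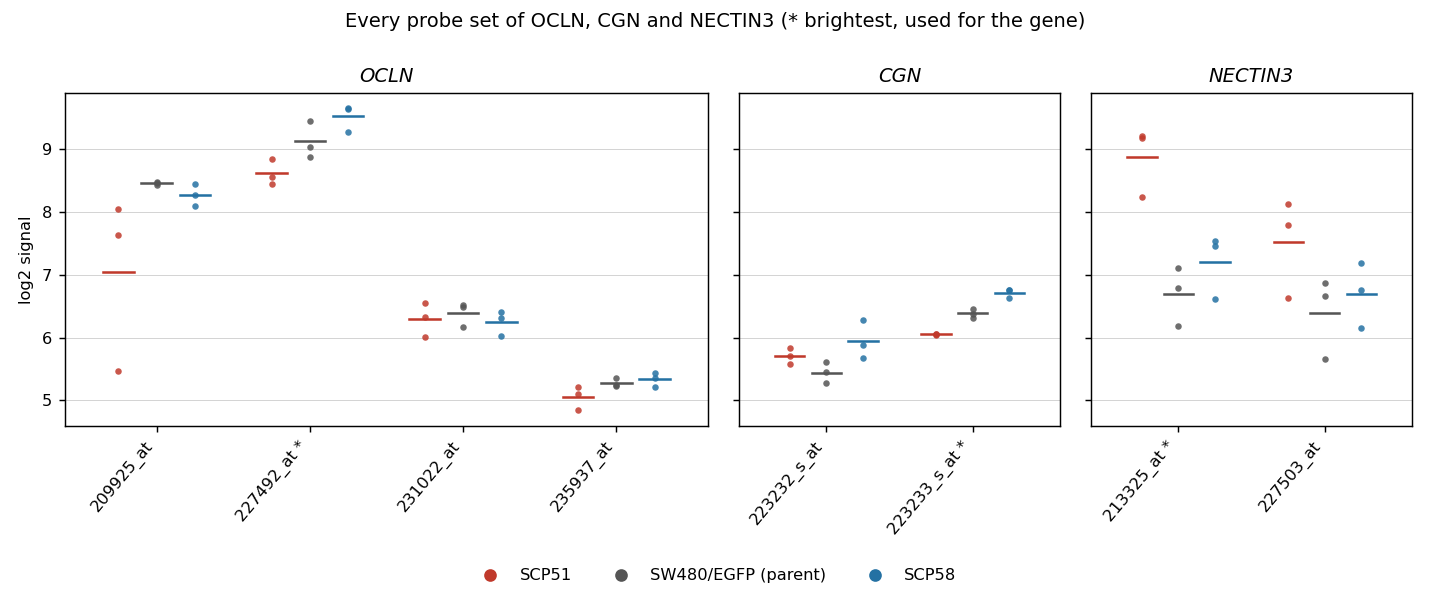
Log2 signal (vertical axis) of every probe set (horizontal axis) of OCLN, CGN and NECTIN3 on the 9 arrays; points are arrays, short lines are group means of 3, and an asterisk marks the brightest probe set. The called differences were 1.67 for NECTIN3, -0.90 for OCLN and -0.66 for CGN, all from the marked probe sets; 231022_at of OCLN shows 0.04.

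The probe sets of a gene did not always move together. Of 20 genes with more than 1 kept probe set, 8 had the same sign on all of them between SCP51 and SCP58, 9 between SCP51 and the parent and 9 between SCP58 and the parent. With every probe set tested by itself, 3 of 64 were called between SCP51 and SCP58 (4.69%, against 3.35% of all probe sets). Between SCP51 and the parent 1 of 64 was called (1.56%, against 1.89%). Between SCP58 and the parent it was 0 of 64 (against 0.134%). These were the brightest probe sets of OCLN, CGN and NECTIN3, and NECTIN3 alone against the parent.

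Junction genes outside the 33 were taken from lists. Of 30 other tight junction genes 16 were tested, and of 17 other adherens junction genes 12; limma called none in any comparison. At an unadjusted p under 0.05 there was 1 of 16 in each comparison and 3, 2 and 0 of 12. Among all genes the shares were 21.3%, 19.6% and 8.60% for SCP51 minus SCP58, SCP51 minus the parent and SCP58 minus the parent. Without SCP51 replicate 1, 1 adherens junction gene was called higher and 1 lower against SCP58, and 1 higher against the parent. In the same refit, of the 8 other desmosome genes tested, 2 were called higher and 1 lower against SCP58. Against the parent 1 of them was called higher and 1 lower. The number of all genes called also changed with an array left out, so these counts alone say little about junction genes. The brightest in the first list were YBX3 (-0.42 ± 0.25 between SCP51 and SCP58), a partner of ZO-1, and AMOTL2 (-0.01 ± 0.13), a scaffold of the angiomotin family. In the second they were EPCAM (-0.16 ± 0.07, adjusted p = 0.233), an epithelial adhesion molecule, and ACTN1 (0.17 ± 0.09), an actin cross-linker. CDH1, which encodes E-cadherin and was picked out after its values were seen, showed -0.29 ± 0.23 against SCP58 (adjusted p = 0.492). Of 12 other desmosome genes 8 were tested, and the desmosomal cadherin DSC2 was lower in SCP51, at 198, 175 and 161 against 295, 386 and 444 in SCP58 and 268, 353 and 331 in the parent. All SCP51 arrays lay below the rest. Its difference from the parent was -0.83 ± 0.18 (adjusted p = 0.0520), which passed in 5 of 20 alternatives, among them leaving out SCP51 replicate 1 (0.0318) or SCP58 replicate 1 (0.0378). The call against SCP58 (2.08-fold lower, adjusted p = 0.0205) was lost in 6 of 20 alternatives. Among them were averaged probe sets, and leaving out SCP51 replicate 2 (0.0753) or replicate 2 (0.0905) or 3 (0.0694) of SCP58.

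Among transcription factors and splicing regulators of epithelial junctions, 13 of 19 listed genes were tested, and the calls were all lower in SCP51. There were 4 lower in SCP51 than in SCP58 (30.8%), with a median of the 13 of -0.44. Of all genes, 2.60% were called lower there and 4.08% in either direction. Against the parent 5 were lower (38.5%), with a median of -0.65. Of all 13598 genes, 215 were called lower there, and 2.96% were called in either direction. The list was chosen with earlier results of these data known, so these shares are not a test of it. Limma called none between SCP58 and the parent, where 3 had an unadjusted p under 0.05 (23.1%, against 8.60%). Against SCP58, 2 were called when replicate 2 of either line or replicate 3 of SCP58 was left out, and the median was -0.27 without SCP51 replicate 3 and -0.29 without SCP58 replicate 2. Against the parent, 1 was called without SCP51 replicate 2 or parent replicate 3, 2 without parent replicate 1, and 3 without parent replicate 2 or after quantile normalization. GRHL2, a factor that activates junction genes, read 115, 101 and 100 in SCP51, 277, 244 and 251 in the parent and 224, 208 and 263 in SCP58. SCP51 lay far below the other 6 arrays. The differences were -1.14 ± 0.13 against SCP58 (adjusted p = 0.00424) and -1.29 ± 0.13 against the parent (0.00227), and both calls were kept in all 20 alternatives.

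OVOL1, a repressor that maintains epithelial identity, read 161, 158 and 170 in SCP51, 244, 269 and 257 in the parent and 290, 276 and 264 in SCP58. SCP51 was lowest, at -0.76 ± 0.10 against SCP58 (adjusted p = 0.00850), lost only when its probe sets were averaged (-0.38, 0.0566), and -0.65 ± 0.10 against the parent (0.0143). The call against the parent was lost in 6 of 20 alternatives. Among them were leaving out SCP51 replicate 2 (0.0611) or parent replicate 1 (0.0540), 2 (0.0619) or 3 (0.0747). ESRP1, a regulator of epithelial splicing that lies on chromosome 8 as GRHL2 does, read 530, 367 and 303 in SCP51, 784, 906 and 927 in the parent and 837, 811 and 1036 in SCP58. All SCP51 arrays were again the lowest. Its difference from the parent was -1.16 ± 0.21 (adjusted p = 0.0235). That call was lost in 7 of 20 alternatives. Among them were leaving out SCP51 replicate 2 (0.0873) or parent replicate 1 (0.0697), 2 (0.0969) or 3 (0.106). The call against SCP58 (adjusted p = 0.0208) was lost in 5 of 20 alternatives, among them leaving out SCP51 replicate 2 (0.0779) or SCP58 replicate 2 (0.0728) or 3 (0.0756).

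TWIST1, a factor known to repress epithelial junction genes, was also lower in SCP51, at 61.4, 64.3 and 70.1 against 138, 108 and 124 in the parent and 124, 91.5 and 107 in SCP58. Every SCP51 array lay below the other 6. The differences were -0.71 ± 0.14 against SCP58 (adjusted p = 0.0350) and -0.91 ± 0.14 against the parent (0.0144). The first was lost in 10 of 20 alternatives, among them leaving out SCP51 replicate 2 (0.112), parent replicate 1 (0.0507) or 3 (0.0723), or SCP58 replicate 1 (0.0784), 2 (0.0583) or 3 (0.103), and the second without SCP51 replicate 2 (0.0592) or parent replicate 1 (0.0660) or 3 (0.0716). KLF4, a factor of differentiated epithelium, read 162, 120 and 125 in SCP51, 257, 576 and 305 in the parent and 187, 215 and 198 in SCP58. Its SCP58 arrays also lay below all parent arrays (-0.83 ± 0.28, adjusted p = 0.420). Its SCP51 arrays lay below those of SCP58 (-0.57 ± 0.28, adjusted p = 0.281). It lay below the parent on every SCP51 array (-1.40 ± 0.28, adjusted p = 0.0373), which did not hold in 11 of 20 alternatives, among them leaving out SCP51 replicate 2 (0.127) or 3 (0.0676), parent replicate 3 (0.0932), or SCP58 replicate 1 (0.0599), 2 (0.0676) or 3 (0.0673).

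**Figure D4:**
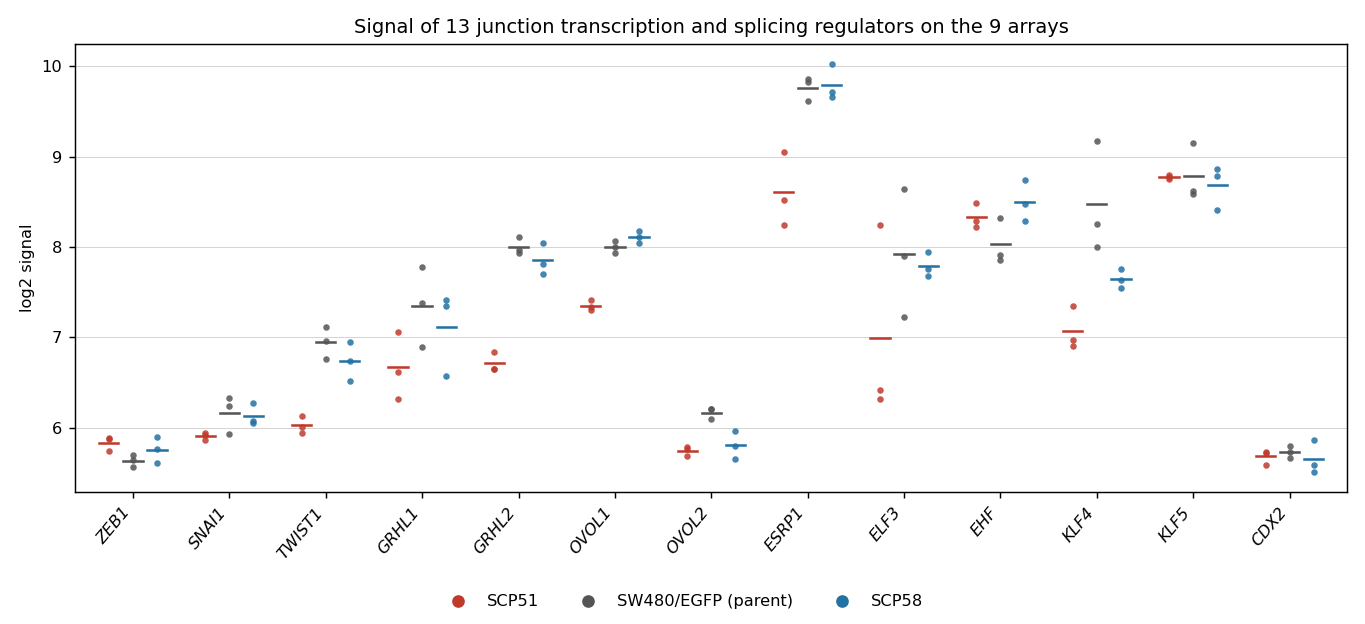
Log2 signal (vertical axis) of the 13 tested junction transcription and splicing regulators (horizontal axis) on the 9 arrays; points are arrays and short lines are group means of 3, and levels of different genes are not comparable. GRHL2, OVOL1, ESRP1, TWIST1 and KLF4 stand lower on the 3 SCP51 arrays than on the 3 parent arrays.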

How the data were processed

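RNA of 9 cultures was labelled with biotin and hybridised to 1-colour Affymetrix arrays, per the labels' protocols. Each deposited value is a linear intensity of 1 probe set. The submitters' processing notes name GCOS 1.4, and how the authors scaled and summarised the probes is not given in the sources used. No detection calls were used here, and the number of arrays limits the precision. Values under 1 (514) were set to 1 before taking log2, and arrays were not rescaled. Of 54675 probe sets, 62 controls were left out and 29166 passed the filter. Symbols come from GEO's platform annotation, brought up to date through Entrez identifiers with RefSeq GRCh38.p14; 41097 probe sets had 1 symbol, 1801 several and 11721 none. The brightest probe set per gene gave 13598 genes.

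Group means were fitted over all 9 arrays together with limma 3.58.1 in R 4.3.3, with moderated variances following an intensity trend and two-sided p-values with Benjamini-Hochberg adjustment over all genes. On simulated data with 200 changed genes among 13598, SCP51 against SCP58 was simulated 10 times: 62.7% of changes by 1 log2 unit and 90.1% of those by 2 were called, and 5.44% of calls were false. The simulated noise was normal, with the same spread for a gene on all 9 arrays. No simulated array stood apart as SCP51 replicate 1 did, so these rates may not hold for the real arrays. The junction genes, lists and tests were chosen with earlier results of these data known. Full statistics are given for called genes and, in each of 4 junction classes, the 2 largest differences between SCP51 and SCP58, the 2 largest between either line and the parent and the 2 brightest genes; genes outside this were named after their values were seen, as were all whose groups did not overlap. Of each further list the called genes, or else the 2 brightest, are named.

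The alternatives were no filter or one at the 65th percentile, quantile normalization, centring on the 75th percentile, 32 added before log2, array weights, variances without the trend, probe sets averaged per gene or tested singly, a fit of only the 6 arrays in question, a block for the replicate number, and each array left out in turn, which makes 20, and for counts also an adjusted p under 0.01 and a 2-fold limit. Figures were drawn with matplotlib 3.10.9.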

Additional observations from a re-analysis of the deposited data

How the results depend on the processing

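The count of junction genes called between SCP51 and SCP58, 3 of 29, was 1 without a filter, 6 with array weights, 0 when probe sets were averaged per gene, 0 with only the 6 arrays compared, 1 at an adjusted p under 0.01, 1 with a 2-fold limit and 1 to 4 with each array left out in turn. The count for SCP51 against the parent, 1, was 3 with array weights, 0 with averaged probe sets, 0 with only the 6 arrays, 0 at an adjusted p under 0.01 and 0 to 2 with each array left out. The count of 0 for SCP58 against the parent was 2 with array weights (CLDN7 and OCLN) and 0 in all others. Array weights also raised the count over all genes between SCP51 and SCP58, as given below. Counts over all genes with array weights are not given here for the comparisons with the parent. The added junction calls are therefore not read as particular to junction genes. Deviations from the group means correlated at -0.22 to 0.13 between samples with the same replicate number. Such low values do not exclude that these cultures were handled together, which the labels do not state. With the replicate number as a block, 1 junction gene was called between SCP51 and SCP58. The count was 0 between SCP51 and the parent, and 0 between SCP58 and the parent. Over all genes, 555 were called between SCP51 and SCP58, against 1527 with array weights, 385 without a filter, 134 with only the 6 arrays, and 137 to 1189 with an array left out. Among the junction genes and the other genes given with values, 39 differences were called or exceeded 2 SE. In 780 refits of these, 679 kept their sign and their side of the threshold, 79 lost a call, 21 gained one, and 1 did not keep its sign, MARVELD3 against the parent, at 0.00 with averaged probe sets. Differences under 2 SE and those of single dimmer probe sets were not followed.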

Other observations

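Some probe sets that did not represent their gene had single arrays far from the rest. MARVELD3 239350_at read 294 in SCP51 replicate 1 and 396 in SCP58 replicate 2, and 44.7 to 64.3 on the other 7 arrays. PKP4 214874_at read 366 in SCP51 replicate 1, 123 in parent replicate 1 and 237 in SCP58 replicate 3, and 24.5 to 49.1 elsewhere. CTNNA1 1558214_s_at read 106 in SCP58 replicate 1 and 401 to 767 on the others. PERP 236009_at, unlike the brightest PERP probe set, read 59.1, 71.7 and 73.0 in SCP51 and 84.1, 103 and 93.6 in SCP58 (-0.46 ± 0.13, adjusted p over probe sets = 0.0908), with no overlap. These probe sets were picked after their values were seen.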
